A study of Mus musculus with 135 samples.

Results

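Single ovulated oocytes of old Tet2 knockout (Tet2KO) females were compared with those of old wild-type (WT) females. The comparison held 7 old Tet2KO and 12 old WT oocytes, 19 of the 135 samples of the series, chosen by the age and genotype in their titles. Each sample was 1 oocyte at metaphase II (MII), the stage at which the mouse egg is ovulated and waits for sperm. Both groups were of C57BL6/129 strain and 10 to 12 months old. The labels give the genotype of the old Tet2KO females only as a knockout of Tet2, and the allele, its deleted exons and any Cre driver are not given in the sources used here. The titles put the oocytes into sets that share an identifier: all 7 old Tet2KO oocytes belong to 1 set, S161, and the 12 old WT oocytes to 2 sets, WT_365 with 5 oocytes and WT_247 with 7. The labels tie no set to an animal, so an oocyte was treated as a part of its set and the set as the replicate. The p-values below therefore measure the spread between sets, over 13 sets of all ages and genotypes, and assume that the single old Tet2KO set varies like the others. Old Tet1KO set Tet1-/-_315 held a single oocyte and was counted as a set like the others. All old Tet2KO oocytes were in 1 of the deposited count tables and all old WT oocytes in the other, so genotype, table and set cannot be told apart in a direct comparison.

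Tet2 encodes one of the ten-eleven translocation (TET) dioxygenases, which oxidise 5-methylcytosine to 5-hydroxymethylcytosine and so start the removal of DNA methylation at CpG sites. In mice, Tet1 acts mainly in embryonic stem cells and primordial germ cells, Tet2 is best known from blood stem cells, and Tet3 is the maternal enzyme that the egg passes to the zygote. MII oocytes are transcriptionally silent, so the RNA counted in them was made earlier, while the oocyte grew.

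Total gene counts ran between 2510427 and 3633422 in the 6 old Tet2KO oocytes of the main analysis and between 2971657 and 10362312 in the 12 old WT oocytes. The number of genes with a count ran between 16197 and 17078 in old Tet2KO oocytes and between 16329 and 19742 in old WT oocytes. Levels below are counts per 1000000 of an oocyte's total gene count (CPM). All 12 oocyte marker genes were detected in both groups and summed to 26310 to 32360 CPM in old Tet2KO oocytes and 17730 to 37310 CPM in old WT oocytes. Oocyte S1616 of the old Tet2KO set stood apart: its 20 leukocyte or macrophage markers summed to 2658 CPM, against 27.5 to 84.2 CPM in the other 6 old Tet2KO oocytes and 14.3 to 32.7 CPM in old WT oocytes. Each of the 20 markers was higher in S1616 than in every old WT oocyte, among them Lyz2, which encodes the lysozyme of macrophages, at 936 CPM. S1616 was left out of the main analysis, and values that include it are given where it changes a result. Among the other 6 oocytes, S1615 held the most of these transcripts, with 14.6 CPM of Lyz2, which was at 0 in all 12 old WT oocytes. The 16 markers of cumulus or granulosa cells, the somatic cells around the egg, summed to 54.2 to 92.3 CPM in old Tet2KO oocytes and 18.98 to 60.3 CPM in old WT oocytes. Of the 16, 6 were at 0 in all 6 old Tet2KO oocytes and 5 in all 12 old WT oocytes, Foxl2 in both. Most of that sum came from Cyp19a1, the aromatase gene, with a median of 59.2 CPM in old Tet2KO and 28.5 CPM in old WT oocytes. The part of these transcripts in the results below was not tested. Erythroid markers summed to at most 0.653 CPM in old Tet2KO and 0.854 CPM in old WT oocytes.

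The 3 promoters below show the CpG sites, the bases on which TET enzymes act, at the targeted gene and at the leading protein-coding gene in each direction among those whose oocytes did not overlap between the groups. Each sequence is the 300 bases around the start of the RefSeq transcript on build GRCm38.p6, 5′ to 3′ on the gene's strand, with each CG in capitals. Tet2 lies on the minus strand of chromosome 3 and its promoter at chr3:133544341-133544640. Sestd1 is at chr2:77280543-77280842 on the minus strand, and Med21 at chr6:146642329-146642628 on the plus strand.
Tet2: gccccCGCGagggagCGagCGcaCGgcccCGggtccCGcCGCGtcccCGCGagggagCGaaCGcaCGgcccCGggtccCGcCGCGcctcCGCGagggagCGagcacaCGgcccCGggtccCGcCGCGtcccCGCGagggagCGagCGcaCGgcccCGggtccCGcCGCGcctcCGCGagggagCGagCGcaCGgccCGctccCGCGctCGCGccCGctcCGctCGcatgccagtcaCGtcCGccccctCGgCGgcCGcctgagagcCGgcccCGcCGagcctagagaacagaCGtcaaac
Sestd1: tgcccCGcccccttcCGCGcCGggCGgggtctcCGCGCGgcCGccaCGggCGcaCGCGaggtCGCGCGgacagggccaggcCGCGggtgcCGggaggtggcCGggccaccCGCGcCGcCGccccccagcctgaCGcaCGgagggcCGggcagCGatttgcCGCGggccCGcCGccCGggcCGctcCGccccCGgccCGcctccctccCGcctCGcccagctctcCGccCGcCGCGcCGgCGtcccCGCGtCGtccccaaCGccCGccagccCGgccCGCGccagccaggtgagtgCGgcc
Med21: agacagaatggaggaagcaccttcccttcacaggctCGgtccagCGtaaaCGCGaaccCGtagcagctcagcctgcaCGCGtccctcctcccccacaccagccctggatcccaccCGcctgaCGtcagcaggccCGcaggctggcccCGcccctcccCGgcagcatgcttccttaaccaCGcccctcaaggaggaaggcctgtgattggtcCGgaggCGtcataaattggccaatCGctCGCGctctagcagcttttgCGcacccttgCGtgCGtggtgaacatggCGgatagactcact
The Tet2 window held 57 CG dinucleotides, that of Sestd1 54 and that of Med21 22. Over the 9673 tested genes with a promoter in the table the median was 20, and 98.8% of these windows, and 94.2% of all 27025 windows, held at least 1 CG. Methylation of these sites was not measured.

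Tet2 RNA was low in every oocyte and lower in the old Tet2KO set (ENSMUSG00000040943.12, chr3:133463679-133545139 in mm10). It had 0, 2, 0, 2, 4 and 4 counts in old Tet2KO oocytes S1612, S1613, S1614, S1615, S1617 and S1618, a total of 12, against 237 counts in the 12 old WT oocytes. The CPM ran between 0 and 1.32 in old Tet2KO oocytes and between 1.44 and 6.95 in old WT oocytes, so the groups did not overlap. Over the summed counts, the old Tet2KO level was 14.99% of the old WT level, with a 95% exact interval of 7.64% to 26.7% that covers counting error only. In edgeR's quasi-likelihood test over the 13 sets, the log2 change was -2.65 ± 0.67 (SE), with an unadjusted p of 0.00217 and an adjusted p of 1 over 14401 genes. S1616 alone had 16 Tet2 counts, or 4.93 CPM, which lies among the old WT oocytes. With S1616 kept, the summed level was 29.8% of old WT, with an interval of 19.4% to 44.2%, and the log2 change was -1.67. At 0.639 CPM, set S161 lay below each of the other 12 sets, which ran between 0.970 and 4.76 CPM, the 2 young Tet2KO sets at 1.18 and 1.30 CPM included. The counts are per gene, so they do not show which exons the remaining reads came from.

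**Figure D1:**
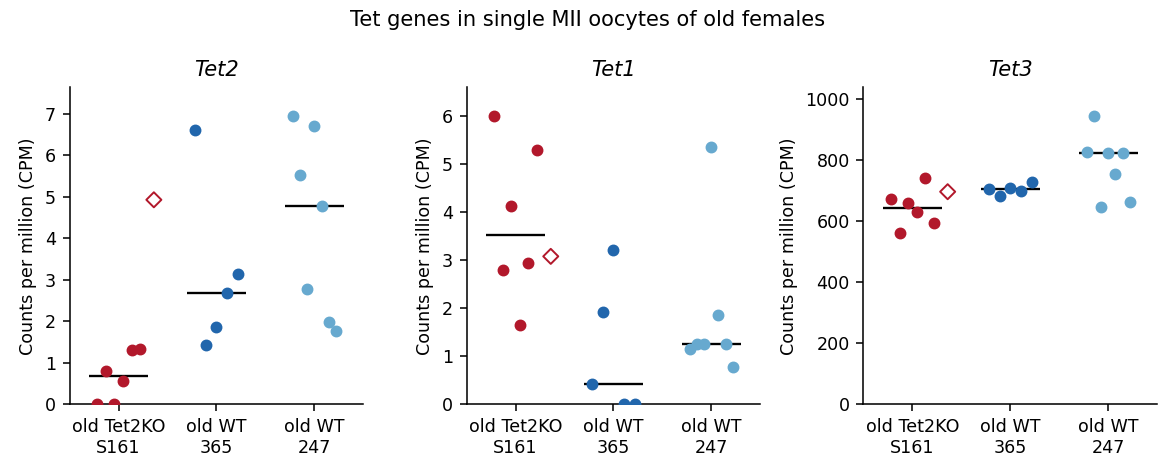
CPM of Tet2, Tet1 and Tet3 in single MII oocytes, by set. Each filled point is 1 oocyte, the open diamond is oocyte S1616, which was left out of the main analysis, and the bar is the median of the filled points. The Tet2 points of set S161 lie at or below 1.32 CPM and those of both old WT sets at or above 1.44 CPM.

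The other TET genes did not pass the test either. Tet3, the most abundant of them, had 671, 560, 657, 629, 741 and 592 CPM in the 6 old Tet2KO oocytes, against a lowest of 644, a median of 718 and a highest of 943 CPM in the 12 old WT oocytes. The groups overlapped, and the log2 change was -0.22 ± 0.27 (SE). Tet1 was at 6.00, 2.79, 4.12, 1.65, 2.94 and 5.30 CPM in old Tet2KO oocytes, against 0 to 5.36 CPM with a median of 1.25 CPM in old WT oocytes. Its log2 change was 1.43 ± 0.65 (SE), with an unadjusted p of 0.0485 and an adjusted p of 1 by edgeR. Tet1 of set S161, at 3.78 CPM, lay within the range of the young WT and young Tet2KO sets, 1.80 to 4.61 CPM. Set against gene length, the level in set S161 was 38.6 CPM per kilobase of exon for Tet3, 0.245 for Tet1 and 0.0379 for Tet2. In the old WT sets it was 44.8 for Tet3, 0.0904 for Tet1 and 0.239 for Tet2, so Tet1 and Tet2 changed places in the order and Tet3 stood far above both in each group. Of the 38 genes listed for TET and DNA methylation machinery, 30 were tested, with a median log2 change of 0.06, against -0.01 over all genes tested. The list median was -0.12 with a term for the naming series of the sets (numbered, or named T or S, as the tables are split). That term is informed by young WT and young Tet1KO sets alone. None was called. Gadd45a, a stress-response gene also linked to active DNA demethylation, was the only other gene of the list, beside Tet2, whose oocytes did not overlap between the groups, while 0.778% of all genes tested were without overlap. It had 4.90 to 9.91 CPM in old Tet2KO oocytes and 1.42 to 4.81 CPM in old WT oocytes, with a log2 change of 1.13 ± 0.67 (SE) and an adjusted p of 1. Reads of Gadd45a can include those of the overlapping E230016M11Rik.

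Across the transcriptome, no gene passed edgeR's quasi-likelihood test between old Tet2KO and old WT oocytes at an adjusted p under 0.05. Of the 14401 genes tested, 0 were called (0%), and every adjusted p was 1. An unadjusted p under 0.05 was reached by 230 genes (1.6%). DESeq2 called 1 gene and limma on set means called 0. The normalization centres the changes near 0, and 48.8% of genes were above 0, with a median log2 change of -0.01. Oocyte by oocyte, all 6 old Tet2KO values lay above all 12 old WT values for 56 genes (0.389% of those tested), and below them for another 56 (0.389%). Set against old WT set WT_365 alone, the counts were 693 and 586 of the 14401 genes tested, and against set WT_247 alone they were 190 and 151. Fewer oocytes have to be passed in such comparisons, so larger counts come with them. Most genes that separated S161 from 1 old WT set did not separate it from the other. Of the 112 genes, 86 were protein coding and 11 were processed pseudogenes.

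**Figure D2:**
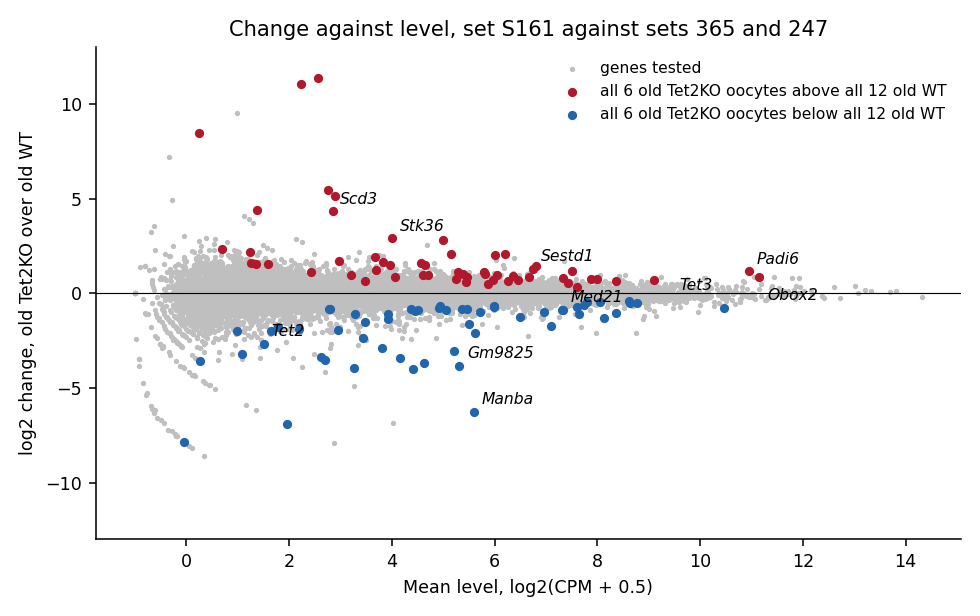
The log2 change of old Tet2KO over old WT (y axis) against the mean level in log2(CPM + 0.5) (x axis) for the 14401 genes tested. Red and blue points are the 56 genes whose 6 old Tet2KO oocytes all lay above, and the 56 whose oocytes all lay below, the 12 old WT oocytes. Tet2 and Manba lie on the lower side and Sestd1, Scd3 and Stk36 on the upper.

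The 12 genes with the smallest p among those higher in all old Tet2KO oocytes, at a mean of 10 CPM or more, were Sestd1, 2310022B05Rik, Slc25a13, 9130015A21Rik, Scd3, Ak4, Tnfsf11, Stk36, Inpp5d, Gm45645, Csrp1 and Stk25. None passed the test, and their adjusted p was 1 in each case, so the values below describe these oocytes. Sestd1, which encodes a phospholipid-binding protein with spectrin repeats, had the smallest unadjusted p of all genes, 0.000896. It had 145, 115.9, 168, 173, 158 and 141 CPM in the 6 old Tet2KO oocytes, against a lowest of 38.6, a median of 65.98 and a highest of 88.2 CPM in the 12 old WT oocytes. The groups were well apart and S1616, at 136 CPM, lay with the other old Tet2KO oocytes. The set values were 152 CPM in S161 and 61.9 ± 13.6 CPM in old WT (SD, n = 2 sets), a log2 change of 1.30 ± 0.29 (SE). Reads of Sestd1 can include those of the overlapping Gm13650.

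Among the others, Slc25a13, Ak4 and Scd3 encode metabolic proteins. Slc25a13 encodes citrin, the mitochondrial carrier that exchanges aspartate for glutamate. It had 24.6, 37, 48.3, 33, 36.2 and 37.7 CPM in old Tet2KO oocytes, against 4.81 to 21.2 CPM with a median of 12.9 CPM in old WT oocytes, and a log2 change of 1.5 ± 0.37 (SE). Ak4, an adenylate kinase of the mitochondrial matrix, ran between 91.7 and 113 CPM in old Tet2KO and between 35.3 and 82.6 CPM in old WT oocytes. S1616 had 66.6 CPM of Ak4, inside the old WT range. Scd3 encodes a stearoyl-CoA desaturase, an enzyme that puts a double bond into saturated fatty acids. It had 14.2, 12.8, 13, 18.4, 4.24 and 12.9 CPM in old Tet2KO oocytes, against 0 to 1.35 CPM in old WT oocytes, and a log2 change of 4.34 ± 1.36 (SE). S1617 was the low oocyte of the set for Scd3, and still above each old WT oocyte.

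Stk36, Stk25, Inpp5d and Tnfsf11 encode signalling proteins. Stk36, the mouse homologue of the fly kinase Fused, had 29.7, 24.3, 35, 21.2, 25.1 and 29.5 CPM in old Tet2KO oocytes, against 0.265 to 9.12 CPM with a median of 3.33 CPM in old WT oocytes. Stk25, a kinase of the STE20 family, ran between 177.5 and 246.6 CPM in old Tet2KO and between 67.8 and 157 CPM in old WT oocytes. S1616 had 148.2 CPM of Stk25, inside the old WT range. Its reads can include those of the overlapping genes Farp2 and Gm28536, since the counting gave a read in an overlap to each gene. Inpp5d, the phosphatase SHIP1 that is best known from blood cells, ran between 14.4 and 19.9 CPM in old Tet2KO and between 3.74 and 12.1 CPM in old WT oocytes. S1616, the oocyte with leukocyte transcripts, had 19 CPM of Inpp5d, no more than the highest of the other 6. Tnfsf11, the cytokine RANKL, ran between 15.5 and 30.3 CPM in old Tet2KO and between 1.96 and 10.8 CPM in old WT oocytes. Csrp1, a LIM-domain protein of the actin cytoskeleton, ran between 15.7 and 24.7 CPM in old Tet2KO and between 2.12 and 10.4 CPM in old WT oocytes.

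The last 3 genes of the higher group are less well characterised. 2310022B05Rik, a protein-coding gene, had 42.3, 87.2, 56, 74.6, 28.1 and 45.7 CPM in old Tet2KO oocytes, against 3.28 to 12.5 CPM in old WT oocytes, and a log2 change of 2.81 ± 0.65 (SE). The long noncoding 9130015A21Rik, which overlaps Gm34047, ran between 5.23 and 23.1 CPM in old Tet2KO and between 0 and 1.35 CPM in old WT oocytes. Gm45645, annotated as antisense and overlapping Erc2, ran between 8.61 and 21.9 CPM in old Tet2KO and between 0 and 1.07 CPM in old WT oocytes. The counting did not use strand, so reads of Gm45645 and Erc2 cannot be told apart where they overlap.

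**Figure D3:**
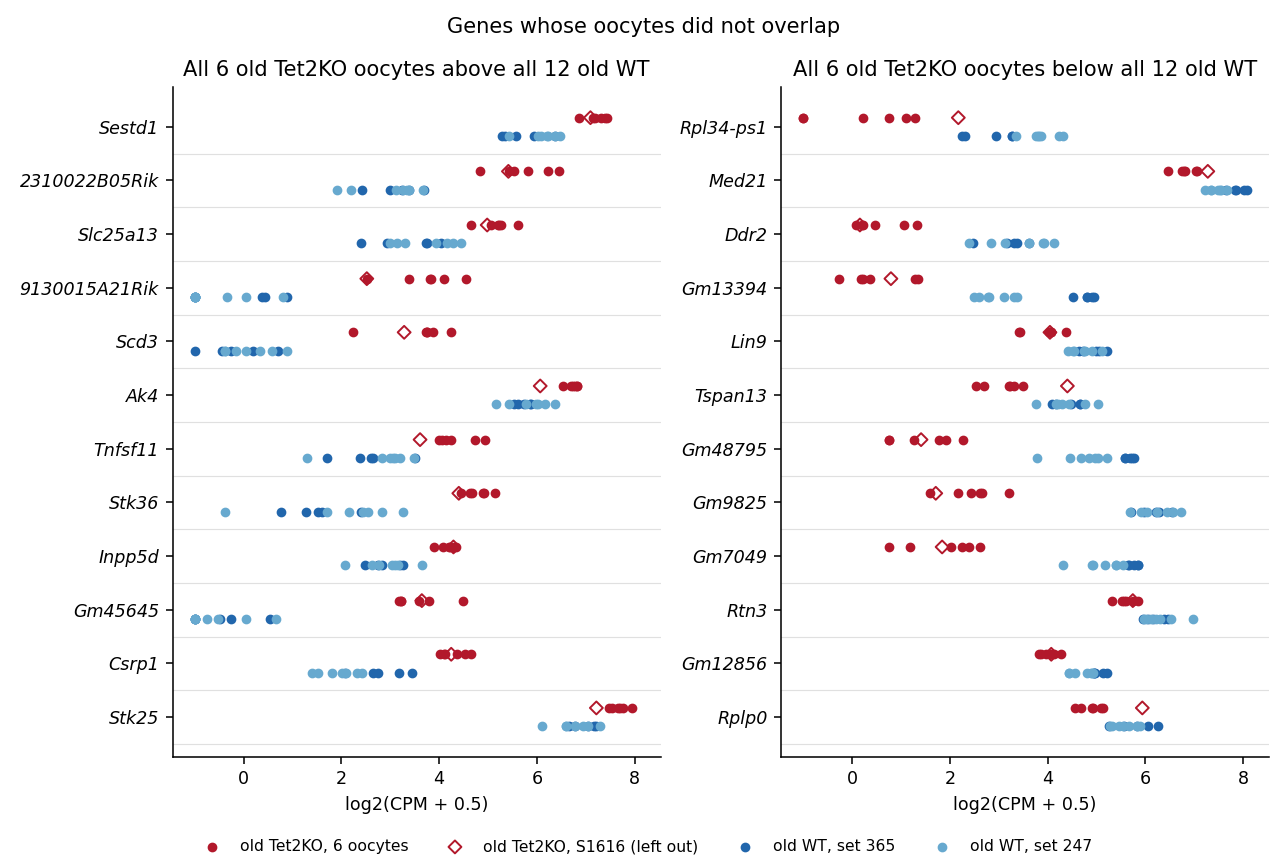
Values per oocyte, in log2(CPM + 0.5) on the x axis, of the 12 named genes whose 6 old Tet2KO oocytes all lay above the 12 old WT oocytes (left) and the 12 whose oocytes all lay below (right). Red points are old Tet2KO oocytes, blue points old WT oocytes by set, and open diamonds oocyte S1616. The diamonds of Tspan13 and Rplp0 lie inside the old WT range.

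The 12 genes with the smallest p among those lower in all old Tet2KO oocytes were Rpl34-ps1, Med21, Ddr2, Gm13394, Lin9, Tspan13, Gm48795, Gm9825, Gm7049, Rtn3, Gm12856 and Rplp0. None passed the test. Med21 encodes a subunit of Mediator, the complex that links transcription factors to RNA polymerase II. It had 107, 111, 110, 132, 87.8 and 130 CPM in old Tet2KO oocytes, against a lowest of 148.5, a median of 194 and a highest of 269 CPM in old WT oocytes. Its set values were 114 CPM in S161 and 236 and 177 CPM in the old WT sets, a log2 change of -0.87 ± 0.29 (SE) with an unadjusted p of 0.0117 and an adjusted p of 1. S1616 had 154 CPM of Med21, inside the old WT range. Reads of Med21 can include those of the overlapping Tm7sf3 and Gm6654. Ddr2, a receptor tyrosine kinase for collagen, had 1.58, 1.99, 0.884, 0.550, 0.653 and 0.662 CPM in old Tet2KO oocytes, against 4.71 to 16.9 CPM in old WT oocytes, and a log2 change of -3.35 ± 1.17 (SE). Its reads can include those of the overlapping 3110045C21Rik.

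The other protein-coding genes of the lower group had log2 changes between -1.37 for Tspan13 and -0.66 for Rtn3. Lin9, a subunit of the MuvB complex that controls cell cycle genes, ran between 10.2 and 20.2 CPM in old Tet2KO and between 20.8 and 36.7 CPM in old WT oocytes. Rtn3, a reticulon that shapes the endoplasmic reticulum, ran between 39.4 and 57.3 CPM in old Tet2KO and between 60.96 and 125 CPM in old WT oocytes. Reads of Rtn3 can include those of the overlapping 2700081O15Rik. Rplp0, which encodes a protein of the ribosomal stalk, ran between 23.2 and 34.7 CPM in old Tet2KO and between 37.7 and 76.2 CPM in old WT oocytes. S1616 had 60.7 CPM of Rplp0, and 20.7 CPM of the tetraspanin gene Tspan13, which ran between 5.30 and 10.8 CPM in the other old Tet2KO oocytes and between 12.99 and 32.2 CPM in old WT oocytes. Both values of S1616 were among those of old WT oocytes.

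The lower group also held pseudogenes and a noncoding gene. Gm9825 had 2.53, 8.76, 5.60, 5.78, 4.89 and 3.97 CPM in old Tet2KO oocytes, against 50.7 to 106 CPM with a median of 74.3 CPM in old WT oocytes. Gm48795 and Gm7049 overlap on chromosome 13 and share reads. Gm7049 ran between 1.2 and 5.63 CPM in old Tet2KO and between 19.4 and 57.2 CPM in old WT oocytes. Rpl34-ps1 ran between 0 and 1.93 CPM in old Tet2KO and between 4.27 and 19.5 CPM in old WT oocytes. Multi-mapped reads were counted, so a pseudogene's counts can include reads of its parent gene or of other copies.

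The levels in the other 10 sets place set S161 among all sets of the series. Of the 24 named genes, 14 (58.3%) had a level in S161 outside the range of the 10 sets that are neither old Tet2KO nor old WT, and 1512 of all 14401 genes tested (10.5%) did. The genes were chosen for their distance from the old WT oocytes, so this share is given as a description. Sestd1 in S161, at 152 CPM, stood above each of the other 12 sets, which ran between 52.0 and 99.6 CPM. Ak4 and Stk25 likewise stood above the 12 others, at 106 CPM against 45.5 to 85.1 CPM for Ak4, and at 205 CPM against 93.3 to 167 CPM for Stk25. Med21 stood below them, at 114 CPM in S161 against 152 to 236 CPM in the 12 others. For Med21, old WT set WT_365 was the highest of the 13 at 236 CPM, and above the 10 sets of other groups, which ran between 152 and 206 CPM.

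For other genes the sets fell into classes. In 8 of the 24 genes the 13 sets fell into a high and a low class with a gap of at least 1.5 on the log2(CPM + 0.5) scale, and in 7 of those S161 shared its class with at least 1 other set. Scd3 was at 12.8 CPM in S161 and 12.3 CPM in young Tet2KO set T214, and at most at 0.766 CPM in the other 11 sets, young Tet2KO set T213 included. Stk36 was between 25.8 and 27.5 CPM in S161, in both young Tet2KO sets and in young WT set T211, and between 2.46 and 7.88 CPM in the other 9. Gm9825 was between 4.48 and 6.58 CPM in S161, both young Tet2KO sets and young WT sets T211 and T231, and between 58.9 and 208 CPM in the other 8. Gm7049 was between 3.54 and 4.45 CPM in S161, young Tet2KO set T214 and young WT set T231, and between 36.6 and 76.7 CPM in the other 10. Gm13394 was the one gene of the 8 with S161 alone in its class, at 1.12 CPM against 6.13 to 82.6 CPM in the other 12 sets. WT sets were found in both classes for Stk36, Gm9825 and Gm7049, so these genes differed between sets of the same genotype by as much as between old Tet2KO and old WT.

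**Figure D4:**
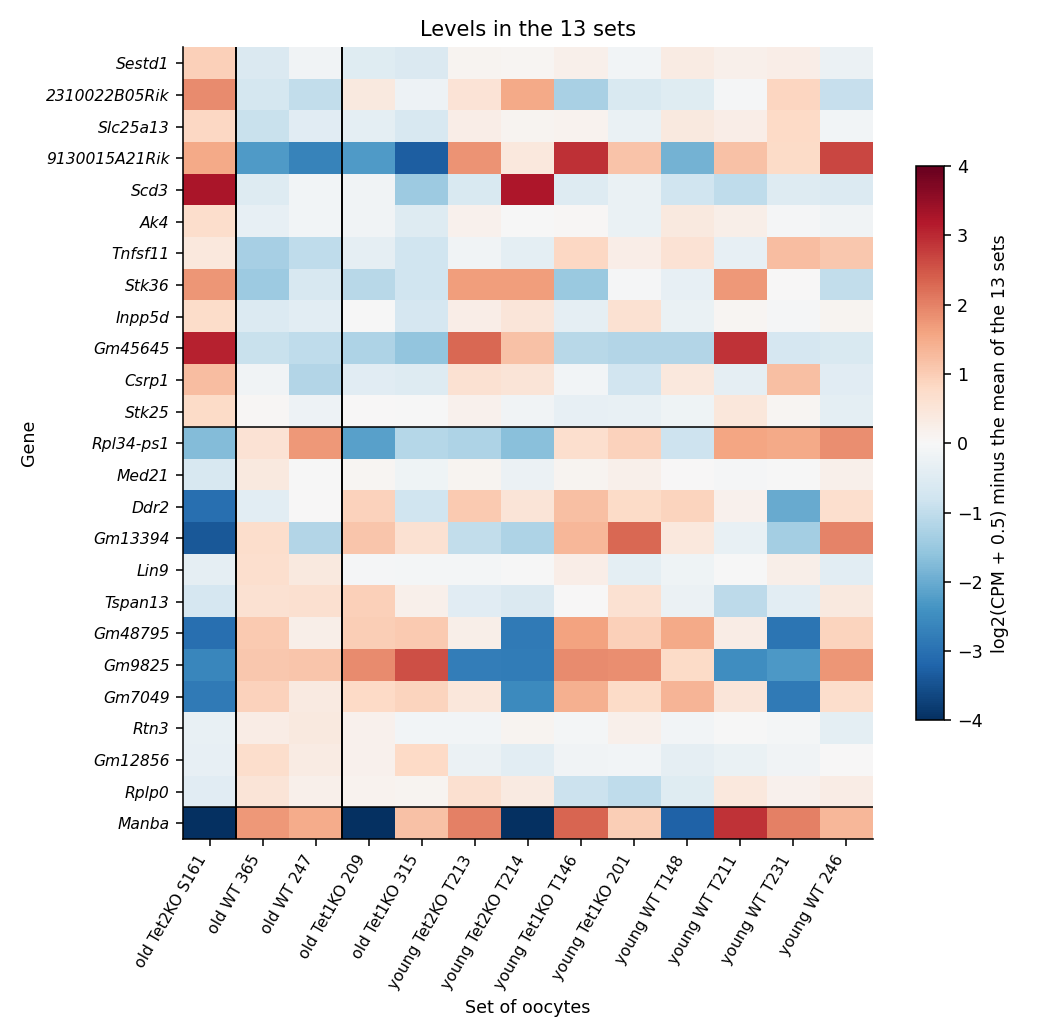
Levels of the 24 named genes and Manba (rows) in the 13 sets of oocytes (columns), as log2(CPM + 0.5) minus the mean of the 13 sets. Set S161 is the first column, followed by the old WT sets. Scd3 is high in S161 and T214, Gm9825 is low in 5 sets, and Manba is low in 4.

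The 2 deposited tables also differed from each other. A fit over the 13 sets with 1 mean per group also allowed for the naming series (and so for the table). Only young WT and young Tet1KO held sets of both series. The series term thus rests on numbered sets WT_246 and Tet1-/-_201, against sets T148, T211, T231 and T146. No old set and no young Tet2KO set informs it, and its use for old oocytes assumes the same difference there. By edgeR, 883 genes (6.13% of those tested) differed between numbered sets and sets named T at an adjusted p under 0.05. Of these, 589 (4.09%) were higher and 294 (2.04%) lower in the numbered sets. Among the 112 genes whose oocytes did not overlap, 12 were among the 883, each in the direction of its difference between old Tet2KO and old WT, and none of the 24 named genes was. In 17 of the 24, the series difference still ran the same way as that between old Tet2KO and old WT. Tspan13 split by series, with an adjusted p of 0.0873 by edgeR. It ran between 6.24 and 13.5 CPM in S161 and the sets named T, and between 15.5 and 26.8 CPM in the numbered sets. Gm15266, a pseudogene on chromosome X and the 1 gene that DESeq2 called, had 5.98 to 10.4 CPM in old Tet2KO oocytes and 0 in all 12 old WT oocytes. It was between 8.41 and 17.7 CPM in each of the 7 sets named T or S, and at 0 in each of the 6 numbered sets, whatever the age or genotype, and was the only gene with that pattern at a minimum of 2 CPM. With the naming series as a term, 0 genes were called between old Tet2KO and old WT. An unadjusted p under 0.05 by edgeR was reached by 1214 of the 14401 genes tested, against 230 without the term. All 24 named genes kept their direction with that term, the log2 change of Sestd1 being 0.92 and that of Tet2 -3.23.

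Genes around Tet2 on chromosome 3 were read separately. Within 3 Mb of Tet2, 32 genes were tested, with a median log2 change of -0.10. Of these, 3 had oocytes that did not overlap, against 0.778% of all genes tested: Tet2, the targeted gene itself, Papss1 and Manba. Manba, which encodes the lysosomal enzyme beta-mannosidase and starts 2.02 Mb from Tet2, had 1.26, 1.59, 0, 1.38, 2.28 and 0.993 CPM in the 6 old Tet2KO oocytes, against 81.2 to 124 CPM in the 12 old WT oocytes. S1616 was low as well, at 3.39 CPM. Reads of Manba can include those of Oaz2-ps, which lies inside it. Over summed counts, the old Tet2KO level was 1.33% of the old WT level, with an exact 95% interval of 0.840% to 1.99% that covers counting error only. The log2 change was -6.27 ± 3.28 (SE), with an unadjusted p of 0.0812 and an adjusted p of 1. Manba was also low in old Tet1KO set Tet1-/-_209, young Tet2KO set T214 and young WT set T148, which with S161 ran between 1.12 and 2.82 CPM, while the other 9 sets ran between 60.98 and 234 CPM. Slc39a8, a zinc transporter gene 2.36 Mb from Tet2 that was picked after its values were seen, was between 0 and 0.331 CPM in old Tet2KO oocytes and between 0 and 90.1 CPM in old WT oocytes. It was also at or below 0.485 CPM in old Tet1KO sets Tet1-/-_209 and Tet1-/-_315 and in sets T214 and T148.

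Genes of the egg itself were read from lists by role, each set against the background of 0% called, 0.389% higher without overlap and 0.389% lower without overlap over all genes tested. None of the lists had a called gene. The subcortical maternal complex and its partners, proteins stored in the egg and needed for the first cleavages, had the highest list median among those lists, 0.25 on the log2 scale over 12 genes tested, and 0.24 with the naming series as a term. Padi6, a maternal protein needed for the cytoplasmic lattices of the egg, had 3451, 3538, 2707, 2395, 2330 and 2184 CPM in old Tet2KO oocytes, against a lowest of 296, a median of 1246 and a highest of 1702 CPM in old WT oocytes. The groups did not overlap, and S1616 had 1756 CPM. Its log2 change was 1.16 ± 0.55 (SE), with an unadjusted p of 0.0572 and an adjusted p of 1. The old WT sets, at 1241 and 1211 CPM, were the low ones for Padi6. Together with old Tet1KO set Tet1-/-_315, a single oocyte, they lay below the other 10 sets. Those 10 ran between 1649 and 4371 CPM and included S161 at 2738 CPM.

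Of 31 oocyte identity genes tested, 20 had a log2 change above 0, with a median of 0.15, or -0.04 with the naming series as a term. Obox2, an oocyte homeobox gene whose reads can include those of the overlapping Obox1, had 2811, 2549, 3003, 3506, 2500 and 3137 CPM in old Tet2KO oocytes. The 12 old WT oocytes had a lowest of 648, a median of 1773 and a highest of 2442 CPM. The groups did not overlap, and the log2 change was 0.88 ± 0.37 (SE), with an unadjusted p of 0.0381 and an adjusted p of 1. Sets T213, T214 and T211 were at like levels, so that with S161 they ran between 2942 and 3254 CPM, and the other 9 sets between 1320 and 2072 CPM. Gdf9, the growth factor by which the oocyte acts on its cumulus cells, ran between 7132 and 11810 CPM in old Tet2KO and between 3008 and 11640 CPM in old WT oocytes, and the groups overlapped.

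Genes of chromosome segregation, a process known to fail more often in eggs of older females, held no called gene and no gene without overlap. The 22 tested genes of cohesin and its protectors, the ring that holds sister chromatids together, had a median of -0.13, with 16 below 0, and -0.37 with the naming series as a term. Stag2, a cohesin subunit on the X chromosome, ran between 22.7 and 48.3 CPM in old Tet2KO and between 38.7 and 75.7 CPM in old WT oocytes, and its log2 change was -0.75 ± 0.35 (SE). The 34 spindle checkpoint and kinetochore genes had a median of -0.05, and -0.40 with the term, when 5 were above 0. The 43 genes of maturation and cell cycle control had -0.12, and -0.01 with the term. Ccna2, the cyclin A2 gene, ran between 562 and 706 CPM in old Tet2KO and between 572 and 1334 CPM in old WT oocytes.

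Genome maintenance and chromatin genes were likewise without a call. Among the 42 genes of double-strand break repair, the median was 0.00, and -0.20 with the naming series as a term. H2afx, whose histone is phosphorylated at DNA breaks, ran between 13.1 and 23.8 CPM in old Tet2KO and between 22.4 and 82.9 CPM in old WT oocytes, with a log2 change of -1.22 ± 0.43 (SE), an unadjusted p of 0.0152 and an adjusted p of 1. Among 34 histone modifiers and oocyte chromatin genes the median was -0.12, and -0.07 with the term. Kdm6b, a demethylase of histone H3 lysine 27, ran between 266 and 398 CPM in old Tet2KO and between 372 and 615 CPM in old WT oocytes. Germline genes that DNA methylation silences in somatic cells had a median of -0.05 over 22 tested, and -0.52 with the term, when 4 were above 0. Imprinted genes had a median of -0.04 over 19 tested, and 0.21 with the term. In neither list did the oocytes of any gene separate the groups. The 22 tested genes of the small RNA pathway and transposon control had a median of 0.04, and -0.10 with the term.

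Genes of stored RNA, protein and energy metabolism gave small medians, some of which changed sign with the naming series as a term. The 41 tested genes of maternal RNA storage and decay had a median of -0.17, and -0.09 with the term. The 78 tested genes of cytosolic ribosomal proteins had a median log2 change of -0.31 with 17 above 0, but 0.69 with the naming series as a term. In young WT and young Tet1KO, the groups with both series, the numbered sets were higher by a median of 1.16 over these genes. With S1616 kept the median was 0.03. The ribosomal sum of S1616 was 2388 CPM, against 1047 to 1327 CPM in the other old Tet2KO oocytes. The 73 nuclear respiratory chain subunits had a median of -0.17 and 0.32 with the term, and the 13 mitochondrial mRNAs -0.06 and -0.71. Mitochondrial mRNAs made up 0.705% to 1.27% of counts in old Tet2KO and 0.173% to 2.17% in old WT oocytes. The 31 proteasome genes had a median of -0.05 and -0.25 with the term, and the 24 genes of chaperones and the unfolded protein response -0.07 and -0.10. Of 31 antioxidant genes 1 was without overlap: Prdx2, a peroxiredoxin that reduces hydrogen peroxide, ran between 295.6 and 364.6 CPM in old Tet2KO and between 144 and 227 CPM in old WT oocytes, with a log2 change of 0.78 ± 0.41 (SE). Prdx2 overlaps Junb on the chromosome, and Junb was also higher in all old Tet2KO oocytes, so the genes can share reads.

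**Figure D5:**
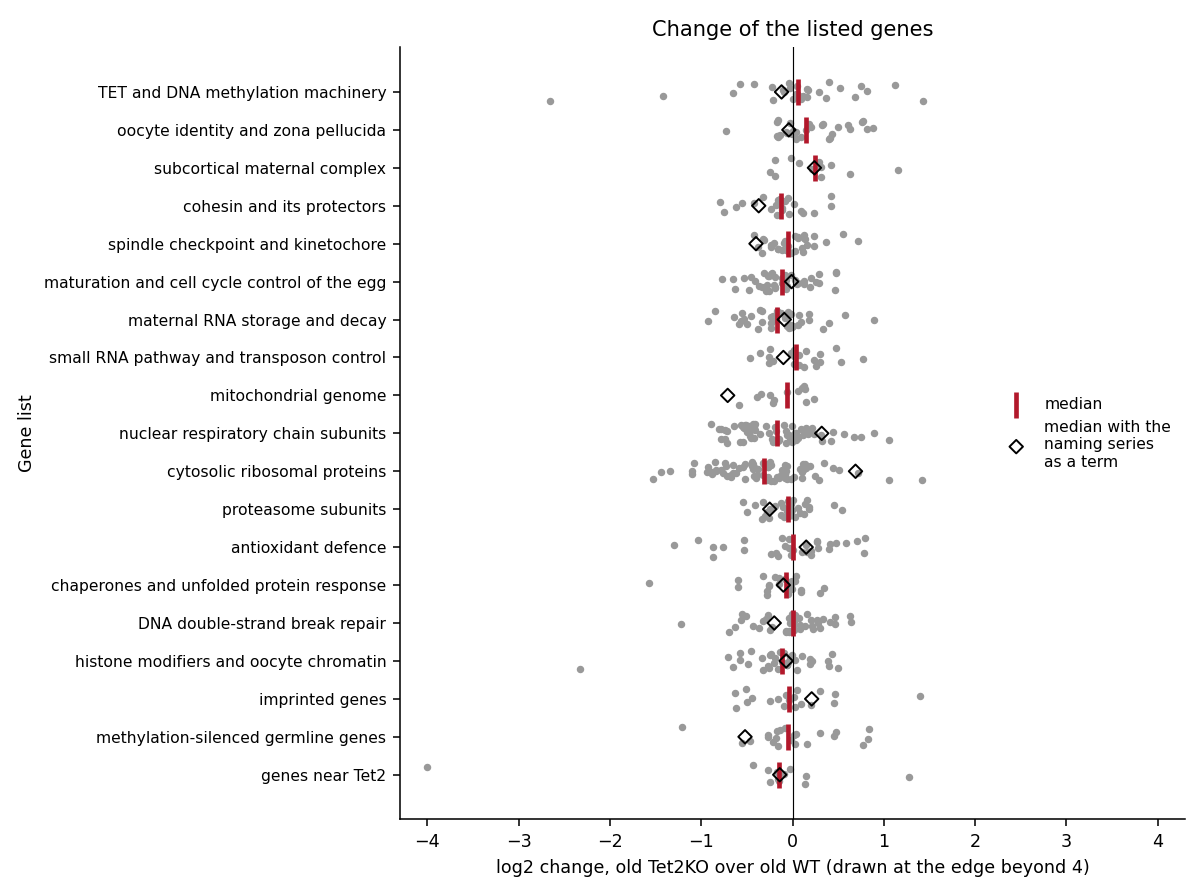
The log2 change of old Tet2KO over old WT for each tested gene of 19 lists (grey points, 1 row per list). The red bar is the list's median and the open diamond its median with the naming series as a term. The red medians lie between -0.31 and 0.25, and for the ribosomal and respiratory chain lists the bar and the diamond lie on opposite sides of 0.

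The old and the young Tet2KO effects were set against each other, each within its own age and with its own WT sets. The old comparison crossed the deposited tables. The young comparison lay in the table of S161, apart from young WT set WT_246. The fit of this difference held no term for the naming series, so age and table cannot be told apart in it. No gene passed edgeR's test of the difference: 0 of 14401 were called (0%), 236 (1.64%) had an unadjusted p under 0.05, and every adjusted p was 1. DESeq2 called 4. Sestd1 was at 152 CPM in S161 and 61.9 ± 13.6 CPM in old WT (SD, n = 2 sets), and at 83.5 ± 1.45 CPM in young Tet2KO (SD, n = 2 sets) and 87.5 ± 14.8 CPM in young WT (SD, n = 4 sets). The difference between its old and young effects was 1.41 ± 0.37 (SE) on the log2 scale, with an unadjusted p of 0.00247. Tnfsf11 was at 20.7 CPM in S161 and 6.51 ± 1.05 CPM in old WT, and at 12.6 ± 1.49 CPM in young Tet2KO and 26.2 ± 11.1 CPM in young WT, a difference of 2.78 ± 0.67 (SE). Slc25a13 was at 36.2 CPM in S161 and 12.8 ± 2.93 CPM in old WT, and at 23.1 ± 1.77 CPM in young Tet2KO and 26.4 ± 6.93 CPM in young WT, a difference of 1.75 ± 0.47 (SE). For these 3 genes the young groups were close to each other or in the other order. All 3 were named because their old Tet2KO oocytes lay above old WT, so their old effect was large by choice. Their p for the difference, the smallest among the 24 named genes by edgeR, is thus a description and no separate support. Over the 24, the difference ran between -3.85 for Ddr2 and 5.32 for 9130015A21Rik, with 0.22 for Scd3 and -0.37 for Gm9825. For Tet2 the difference was -1.66 ± 0.75 (SE).

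Pnpla3, a lipid hydrolase gene, had the smallest p for the difference between ages, 0.000202, and was one of the 4 genes that DESeq2 called, with Gm49513, which overlaps it, Sept3 and Gm18860. It was at 2.34 CPM in S161 and 1.5 ± 0.105 CPM in old WT (SD, n = 2 sets), and at 128 ± 2.09 CPM in young Tet2KO and 1.92 ± 0.152 CPM in young WT. Per oocyte it ran between 1.18 and 3.64 CPM in old Tet2KO and between 0 and 2.67 CPM in old WT oocytes, so both of these old groups were at the low level. The high level was also found in the 2 old Tet1KO sets, at 184.6 and 123.3 CPM, and in young Tet1KO set T146, at 116.6 CPM. Sept3 and Gm18860, named because DESeq2 called them, were at 3.30 and 16.2 CPM in S161, while the old WT sets WT_365 and WT_247 were at 4.51 and 31.9 CPM for Sept3 and at 23.4 and 1.64 CPM for Gm18860, and so disagreed with each other. Dph6, Mfap1b, Spint1 and Tex15, which are low in some other sets, overlapped between the groups. Dph6 ran between 500 and 677 CPM in old Tet2KO and between 154 and 872 CPM in old WT oocytes.

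With oocyte S1616 kept, 2 genes were called by edgeR, both higher: Fth1, the ferritin heavy chain, with a log2 change of 3.74 ± 0.34 (SE) and an adjusted p of 0.00297, and Ctsb, the lysosomal protease cathepsin B, with 2.69 ± 0.32 (SE) and an adjusted p of 0.0265. S1616 had 1280 CPM of Fth1, against 7.83 to 39.6 CPM in the other 6 old Tet2KO oocytes and 5.60 to 26.6 CPM in old WT oocytes. It had 525 CPM of Ctsb, against 11.1 to 23.7 CPM in the other 6 and 7.46 to 24.2 CPM in old WT oocytes. Both calls thus rested on 1 oocyte. Without S1616 the log2 changes were 0.20 for Fth1 and 0.26 for Ctsb.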

How the data were processed

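RNA was sequenced from single MII oocytes. The authors deposited gene counts, unnormalized, in 2 oocyte tables. Per the file headers, featureCounts 1.6.2 counted fragments over GENCODE release 17 (mouse) at a mapping quality of 30 or more, without strand, counting multi-mapped reads and reads in overlapping genes. Per the submitters' processing notes, HISAT2, SAMtools and mm10 were used. In the tables, 39 count columns matched no sample's labels and were not used, and the germ cell table was not used. Counts were summed per set, oocyte S1616 left out. edgeR 4.0.16 (quasi-likelihood F-test, TMM, 1 mean per group) was fitted over 13 sets, 7 residual degrees of freedom, on genes with 1 CPM in at least 2 sets, with Benjamini-Hochberg adjustment. Standard errors were taken as the size of the log2 change over the root of F. The running of the test was checked on counts simulated with the fitted spread and no difference between tables. Its power to call genes in these data is not reported here.

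The genes named were the 3 Tet genes, up to 12 per direction by smallest p among genes whose oocytes did not overlap and whose higher group averaged 10 CPM or more, up to 4 per list of the 24 gene lists by smallest p, and 5 genes of other comparisons. Members, lists and rules were chosen with earlier results of these data known. Gm15266, Sept3, Gm18860, Gm49513, Fth1, Ctsb, Slc39a8 and the genes of the split within set S161 were chosen after their values were seen. No pair of the 52 pairs of oocytes within a set held identical counts, and a chi-square test of such pairs, over genes with 20 or more counts in the pair, gave at least 4.56 per degree of freedom. Alternatives were DESeq2 1.42.0, limma 3.58.1 on set means, other size factors, filters, a naming series term, fewer sets and left-out oocytes. Gene symbols were matched by gene ID, and 95 of 53715 IDs had none. Promoters are from RefSeq on GRCm38.p6, the same assembly as mm10.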

Additional observations from a re-analysis of the deposited data

Results flagged for a closer look

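In 7 of 55 groups of values over the 7 old Tet2KO oocytes, 1 oocyte lay farther from the rest than Dixon's critical gap for 7 samples, 0.568 of the range. Chance passes that gap in about 1 of 20 groups, but that rate does not apply where the oocyte or the gene was chosen by these values: S1616 was left out for its leukocyte transcripts, and Tspan13, Rplp0 and Gm45645 were named because the other 6 oocytes lay apart from old WT. In 5 of the 7 it was S1616. Its leukocyte or macrophage markers summed to 2658 CPM, against 27.5 to 84.2 CPM in the other 6 old Tet2KO oocytes and 14.3 to 32.7 CPM in old WT oocytes. As S1616 is outside the main analysis, its marker sum of 2658 CPM is also a signal in data that the comparison does not use. Its cytosolic ribosomal protein genes summed to 2388 CPM, against 1047 to 1327 CPM in the other 6. Tet2 was at 4.93 CPM in S1616, against 0 to 1.32 CPM in the other 6, Tspan13 at 20.7 CPM against 5.30 to 10.8 CPM, and Rplp0 at 60.7 CPM against 23.2 to 34.7 CPM. S1617 held the 2 other distant values. Its histone modifier and oocyte chromatin genes summed to 14990 CPM, against 16580 to 17660 CPM in the other 6 oocytes, and its Gm45645 level was 21.9 CPM, against 8.61 to 13.3 CPM. The part of leukocyte RNA in the values of S1616 was not tested.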

How the results depend on the processing

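The count of 0 genes called between old Tet2KO and old WT oocytes stayed at 0 with RLE size factors, limma on set means, the naming series term, the 3 sets alone, a filter of 10 CPM in 2 sets and robust edgeR, the last 2 chosen after seeing the data. It was also 0 to 0 without either old WT set or any 1 old Tet2KO oocyte. It was 2 with S1616 kept, 1 with DESeq2 and 76 (31 higher, 45 lower) of 33301 genes with no filter on low counts, and 69 of the 76 were genes of the main test. For the difference between the old and the young effect the count of 0 became 4 with DESeq2 and 69 with no filter, and was 0 to 0 without any 1 set or oocyte. Without the filter, with 33301 genes, edgeR shrank each gene's quasi-dispersion fully to the trend, so a gene's own spread between sets no longer entered its test. The genes whose oocytes did not overlap numbered 56 higher and 56 lower. They were 43 and 45 with S1616 kept, 693 and 586 against set WT_365 alone, and 190 and 151 against set WT_247 alone, where fewer oocytes have to be passed.

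Of 771 log2 changes of 46 named genes recomputed under the alternatives, 753 kept their sign and their side of the threshold, 14 passed the threshold with no filter, and 4 reversed. Of these genes, 24 were named because all their old Tet2KO oocytes lay on 1 side of old WT, and none passed in the main fit. Kept signs and sides thus follow largely from the choice of genes and are no measure of stability. With the naming series term the log2 change was -0.29 for Pnpla3, -0.27 for Dph6 and -4.67 for Spint1, against 0.65, 0.56 and 0.46 without it. For Mfap1b it was -0.46 to 0.39 when either old WT set was left out, 0.39 without WT_247, against -0.09 with both. The cause was not tested. No paired analysis was possible because the old Tet2KO and old WT oocytes share only oocyte numbers, which number the oocytes within sets, and there is 1 old Tet2KO set.

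With a single old Tet2KO set, the set, the table and the genotype cannot be told apart. Depth limits the low genes: 1 count is 0.28 to 0.40 CPM in an old Tet2KO oocyte.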

Other observations

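Within set S161, 2 of the 7 old Tet2KO oocytes, S1612 and S1617, stood together apart from the other 5 in 19 genes, 12 higher and 7 lower. A gene was counted where the largest gap between neighbouring oocytes was at least 1.5 on the log2(CPM + 0.5) scale and the highest oocyte reached 10 CPM. Other pairs of the set were apart in at most 2 genes, and S1616 alone was apart in 116, of which it was the highest in 96. By the same rule, old WT oocyte WT_247_7 alone was apart from its set in 101 genes and WT_365_5 in 53, and both were kept in the main analysis. Coro2b, an actin regulator of the coronin family, was at 119 and 111 CPM in S1612 and S1617, and between 0 and 1.59 CPM in the other 5. Kcnk18, a potassium channel gene, was at 0.316 and 0.326 CPM in the pair and between 25.6 and 37.4 CPM in the others. Gsto2, a glutathione transferase gene, was at 24.3 and 29.4 CPM in the pair and between 0 and 0.826 CPM in the others. Of the 12 genes that were higher in the pair, 6 lie on chromosome 5, 5 of them between 86.1 and 95.5 Mb: Uba6, AA792892, Gm6205, Gm3259 and D5Ertd577e. In 14 of the 19 genes the pair lay within the range of the 12 old WT oocytes. Among old WT oocytes, the pair with the most such genes was WT_365_4 and WT_365_5, with 6. These genes were found by their values and not tested.

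By position, the 112 genes without overlap were most frequent on chromosome 13, with 14 of 660 tested (2.12%), then chromosome 1 with 16 of 941 (1.70%) and chromosome 8 with 13 of 803 (1.62%), against 0.778% of all genes tested. On chromosome 13, 6 of the 14 lay between 116.9 and 119.8 Mb and all were lower in old Tet2KO: Parp8, Gm6421, Paip1, 4833420G17Rik, Gm9752 and Zfp131. Gm9752 lies inside 4833420G17Rik, and Gm48795 and Gm7049, also among the 14, overlap. On chromosome 8 both entries of Dpep2 overlap, as do Prdx2 and Junb, and on chromosome 1 Alyref2 and B930036N10Rik overlap. Such genes can share reads, so the counts on these chromosomes, the 6 and the 112 are not all separate signals. The promoters of the lower genes held a median of 26 CG dinucleotides over 31 genes with a window, those of the higher genes 15 over 45, and those of all tested genes 20. These are descriptions with no test.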
